A study of Mus musculus with 14 samples.

Results

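Genes that encode the machinery of RNA polymerase II (Pol II) pausing and elongation were described at 34 loci in G1ER cells, chosen by name as a list of factors and not by any measured value, out of 21887 mouse protein-coding genes. Each locus was the gene with 5 kb on either side (GRCm38). G1ER is a mouse erythroblast line without GATA1 of its own, in which estradiol switches on an introduced GATA1 fusion, and the cells were wild type (WT) or carried a knockout (KO) of Chd7, which encodes a chromatin remodelling ATPase. The labels give neither the number of knockout clones nor the deleted part of Chd7. They mention estradiol only for a differentiation assay, so whether the cells used for chromatin had received it is not known here. Growth medium with erythropoietin and stem cell factor was common to both genotypes. Chromatin immunoprecipitation with sequencing had been done for the transcription factors GATA2 and RUNX1 (1 library per genotype each) and for Pol II phosphorylated at serine 2 of its tail repeats (S2P, 2 replicates per genotype), with 6 further input samples.

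After initiation, Pol II commonly stops a short way into the gene, held by the pausing factors NELF and DSIF. The kinase P-TEFb, which the 7SK particle keeps inactive and which the super elongation complex and other carriers bring to genes, phosphorylates NELF, DSIF and the polymerase tail, after which NELF leaves and DSIF travels with the polymerase. The PAF complex, CDK12 and CDK13, histone chaperones, TFIIS and the methyltransferase SETD2 accompany the elongating enzyme. S2P is the form of Pol II typical of gene bodies and gene ends. GATA2 and RUNX1 are hematopoietic transcription factors. GATA2 is typical of progenitors and is replaced by GATA1 as erythroblasts mature.

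The deposited peak lists held 68199 WT and 80611 KO GATA2 peaks, 28952 and 35281 RUNX1 peaks, and 163620 and 165206 S2P peaks. Each target had 1 list per genotype, so no replicate spread exists, no difference between genotypes was tested, and every difference below compares 2 lists. Peak strength is given as the fragments piled up at the summit, recovered from the deposited values, with the exact Poisson 95% interval in parentheses, which covers counting error only. The intervals are on counts without scaling. Without it, all shared peaks had median log2 ratios of KO over WT of 0.21 for RUNX1 and 0.19 for GATA2. Intervals that lie apart are therefore no test between genotypes. Median summits held 23 to 38 fragments in the 6 lists and the strongest held 282 to 298. S2P peaks covered 5 of the 7 erythroid marker genes for 50% or more of their length in both lists, among them Tfrc (99.2% WT, 98.6% KO) and Klf1 (75.2%, 83.3%), whereas Slc4a1 was at 0. The 5 include Gata1 (65.9%, 64.6%), which is no ordinary marker in a line without GATA1 of its own. The 4 T and B cell, 3 granulocyte and 4 liver or neuron markers were all at 0. At Chd7 there was no S2P or RUNX1 peak in either list and 1 GATA2 peak in KO, so the locus gave no check of the genotype label.

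RUNX1 lay at the starts of these genes, and 4 promoters show what lies beneath. RefSeq (GRCm38.p6) lists a start and strand for 29 of the 34 genes, and the 250 bases before a start are printed 5′ to 3′ along the gene. Polr2a (chr11:69758634-69758883, minus strand) carried the strongest RUNX1 peak in WT. Ccnt2 (chr1:127773914-127774163, plus strand) carried the next strongest and holds the RUNX letters TGTGGT. Ell2 (chr13:75707234-75707483, plus strand) is the only gene whose window held a GATA motif searched, and a weak GATA2 peak lay there in WT alone. The internal start of Mllt3 (chr4:87806324-87806573, minus strand) had the strongest GATA2 peak at any start, with RUNX1 on it. Capitals mark a motif match.
Polr2a: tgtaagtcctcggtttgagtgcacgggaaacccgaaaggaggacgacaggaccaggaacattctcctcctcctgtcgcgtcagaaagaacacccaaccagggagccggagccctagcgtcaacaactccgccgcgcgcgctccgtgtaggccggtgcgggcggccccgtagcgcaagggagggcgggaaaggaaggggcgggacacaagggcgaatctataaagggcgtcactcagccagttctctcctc
Ccnt2: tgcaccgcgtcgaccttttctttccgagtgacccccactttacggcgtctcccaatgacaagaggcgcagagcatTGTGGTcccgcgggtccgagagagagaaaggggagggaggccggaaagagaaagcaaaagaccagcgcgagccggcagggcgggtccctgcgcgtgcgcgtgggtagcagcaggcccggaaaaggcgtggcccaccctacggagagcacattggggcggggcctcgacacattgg
Ell2: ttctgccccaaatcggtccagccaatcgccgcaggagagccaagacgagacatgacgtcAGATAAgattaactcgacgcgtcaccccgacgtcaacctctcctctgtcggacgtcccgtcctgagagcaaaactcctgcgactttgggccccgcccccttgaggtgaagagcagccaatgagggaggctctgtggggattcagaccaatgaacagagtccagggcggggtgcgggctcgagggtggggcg
Mllt3: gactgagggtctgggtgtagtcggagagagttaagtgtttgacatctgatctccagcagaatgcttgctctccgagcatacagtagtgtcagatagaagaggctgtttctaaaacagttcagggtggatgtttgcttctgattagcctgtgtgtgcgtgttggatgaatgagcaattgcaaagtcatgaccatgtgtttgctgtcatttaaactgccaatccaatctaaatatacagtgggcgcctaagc
The motifs searched on both strands were TGTGGT and TGCGGT for RUNX and AGATAA and TGATAA for GATA, in windows from 250 bases before to 50 after the start, and no 2 matches overlapped. TGTGGT was found at 2 of the 29 genes, Ccnt2 at -175 on the gene's strand and Leo1 at -246 on the other strand, and 15.0% of all 21263 RefSeq windows of this length hold it. TGCGGT was found at 5 genes, namely Aff1, Ccnt1, Cdc73, Cdk12 and Ssrp1, beside 7.44% of all windows. AGATAA was found only at Ell2, at -191, beside 9.65%, and TGATAA at none of the 29, beside 7.60%. RUNX1 peaks overlapped 30 WT and 31 KO of the 32 windows of these genes, most of which held neither RUNX motif. The windows were rich in G and C, with a median of 64.5% against 56.3% over all windows. A match describes letters only, and the windows without one say nothing of the factor.

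All 34 loci had a RUNX1 peak in WT and in KO. This compares with 50.1% of all protein-coding genes in WT and 52.7% in KO, but with 93% and 96.5% of the 3045 genes that S2P covered for 50% or more in both lists, so the share is near that of other genes with elongating polymerase. The loci held 114 RUNX1 peaks in WT and 118 in KO, with 1 to 15 per gene, and no gene had RUNX1 in 1 genotype alone, where 3.99% of all genes had it in KO alone and 1.34% in WT alone (3.81% and 0.361% of S2P-covered genes). Within 1 kb of a listed start, 27 of 29 genes had a RUNX1 summit in WT and 28 in KO, beside 38.6% and 42.4% of all genes and 86.1% and 92% of S2P-covered genes. Leo1 had none in either list. Cdk13 had such summits in KO alone, at -296 and 542 bp from its start with 39 and 20 fragments, and neither reached a −log10 q of 5. A further KO peak without a WT counterpart lay there at 1491 bp, with 30 fragments. For 19 genes in WT and 21 in KO, out of 29, the strongest RUNX1 peak of the locus was the one within 1 kb of a start. Counting only summits inside the gene left 22 genes with RUNX1 in WT and 23 in KO, as 46 of the 114 WT peaks lay in the flanks. Counting only peaks to which no other gene was nearer left 33 in WT, without Nelfe. In KO it left 31, without Larp7, Paf1 and Polr2b.

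GATA2 had peaks at 29 loci in WT and 31 in KO. The background was 56.6% and 61% of all genes, and 83% and 88% of S2P-covered genes, so here too the share is near that of transcribed genes. The loci held 209 WT and 231 KO peaks, and Mllt3, Ell2, Aff1 and, in WT, Cdk13 held the most, with 22 to 43 each. No GATA2 peak lay at Cdk9, Nelfb or Nelfcd. Ccnk and Paf1 were bound in KO alone, a state found at 7.35% of all genes and 6.5% of S2P-covered genes, and no gene was bound in WT alone, as 2.9% and 1.51% were. The KO summit at Paf1 held 19 fragments (11.4 to 29.7) at 526 bp after the start, and that at Ccnk held 14 (7.65 to 23.5) inside the neighbour Ccdc85c. The Ccnk peak was lost when both GATA2 lists were cut to the same length, and both peaks when −log10 q had to reach 5. GATA2 was rarely at starts: 5 of 29 genes in WT and 4 in KO had a summit within 1 kb, beside 15.1% and 17.5% of all genes and 29% and 34.7% of S2P-covered genes.

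**Figure D1:**
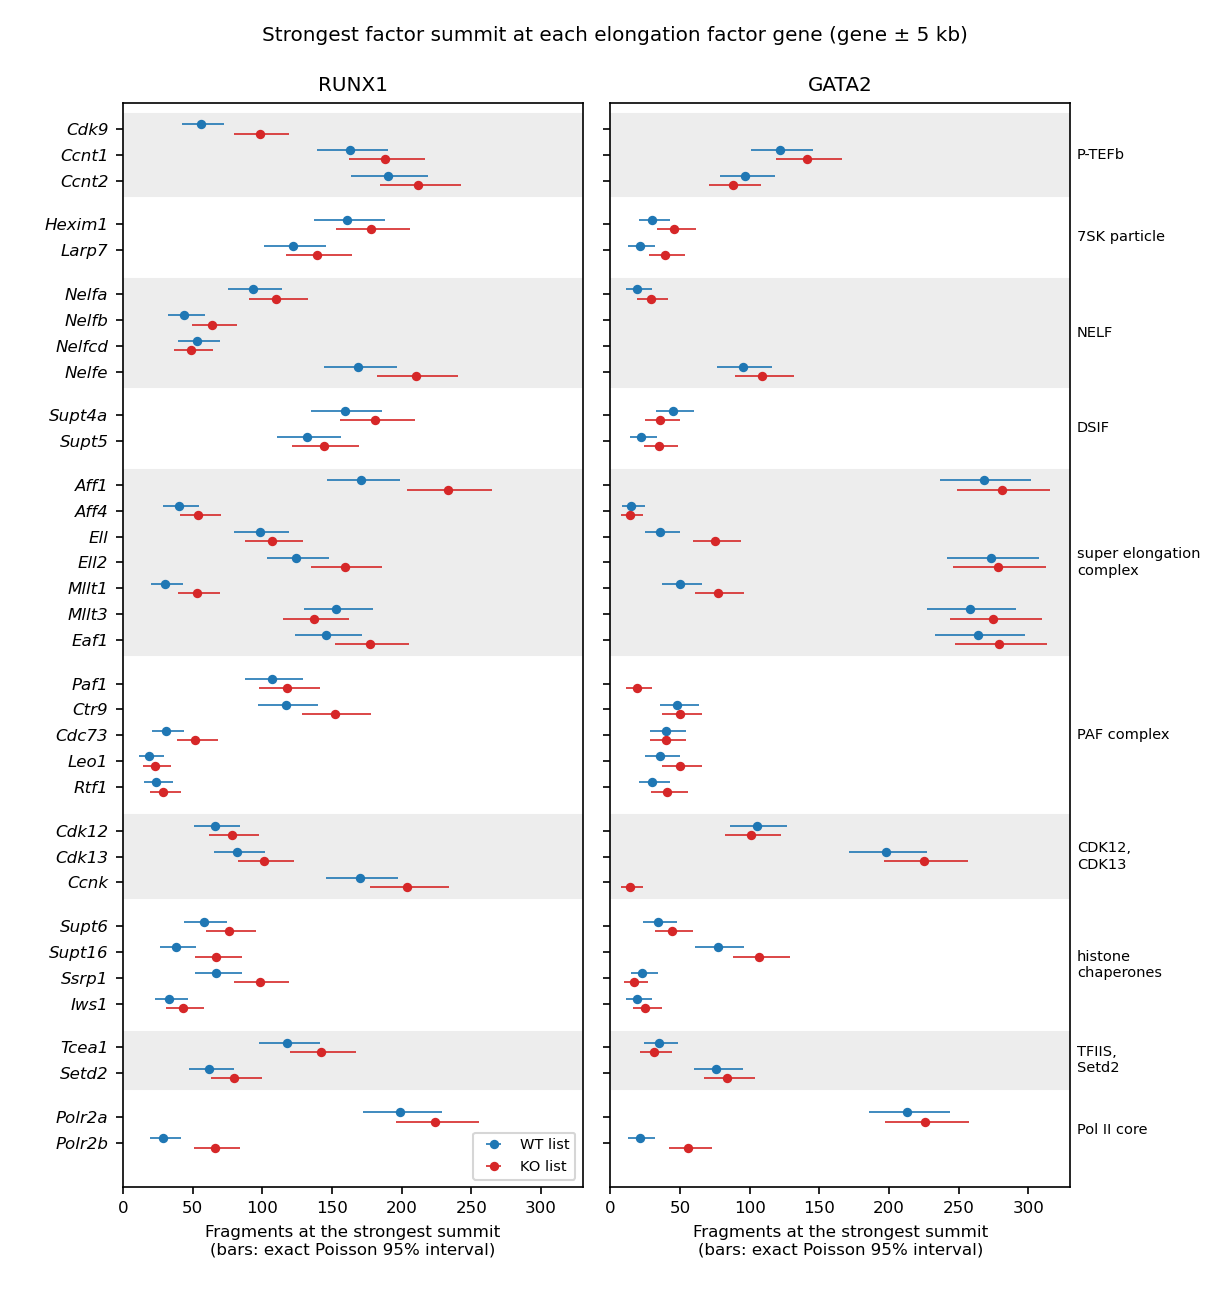
Fragments at the strongest RUNX1 (left) and GATA2 (right) summit of each gene with 5 kb on either side, grouped by role, in the WT (blue) and KO (red) lists; bars are exact Poisson 95% intervals and a missing point means no peak. RUNX1 points are present at all 34 genes, whereas the 4 GATA2 sites above 250 fragments all belong to the super elongation complex group, at Aff1, Ell2, Mllt3 and Eaf1.

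P-TEFb consists of the kinase CDK9 and a cyclin T. Cdk9 had RUNX1 alone, with 4 peaks in WT and 5 in KO, and its start summit (chromosome 2, 32712727 to 32713282) held 54 fragments (40.6 to 70.5) in WT against 98 (79.6 to 119) in KO. These intervals did not overlap, and the ratio after division by the lowest background of each list was 0.84 on the log2 scale. Ccnt1, the gene of cyclin T1, had its strongest RUNX1 peak inside the neighbouring gene Kansl2, with 163 fragments (139 to 190) in WT against 188 (162 to 217) in KO. Its own start summit held 83 fragments in WT and 100 in KO. At Ccnt2, the gene of cyclin T2, the start summit (chromosome 1, 127773670 to 127774411) held 190 (164 to 219) in WT against 212 (184 to 243) in KO, counts whose intervals overlap. A smaller RUNX1 peak at -921 bp from that start held 55 (41.4 to 71.6) in WT against 99 (80.5 to 121) in KO, with intervals apart. GATA2 bound inside Ccnt1 with 122 fragments in WT and 141 in KO, and inside Ccnt2 with 97 and 88.

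The 7SK particle restrains P-TEFb through HEXIM proteins and is stabilised by LARP7. Hexim1 had a RUNX1 summit at -467 bp from its start with 161 fragments (137 to 188) in WT against 178 (153 to 206) in KO, within each other's interval. Its GATA2 summit, 2907 bp after the start, held 30 in WT and 46 in KO. Larp7 shared its RUNX1 start site with the adjoining gene Zgrf1, with 122 fragments in WT and 139 in KO. A GATA2 site 4865 bp into Larp7 (chromosome 3, 127548380 to 127548551) held 21 (13.0 to 32.1) in WT against 39 (27.7 to 53.3) in KO, a log2 ratio of 0.81 with overlapping intervals.

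NELF has 4 subunits, encoded by Nelfa, Nelfb, Nelfcd and Nelfe, and holds the paused polymerase. RUNX1 was present at all 4. Nelfe carried the strongest, with 169 fragments (144 to 196) in WT against 210 (183 to 240) in KO, at one end of the gene (chromosome 17, 34850122 to 34850583). Cfb and Skiv2l lie within 5 kb of Nelfe, and in WT this summit was nearer to another gene. Nelfa had 63 (48.4 to 80.6) in WT against 110 (90.4 to 133) in KO at -174 bp from its start, a log2 ratio of 0.78 with intervals apart. Nelfa lies on chromosome 5, whose KO peaks are treated below. At Nelfb the start summit held 44 in WT and 53 in KO, and at Nelfcd the only RUNX1 peak held 53 and 49. GATA2 bound Nelfe with 95 fragments in WT and 109 in KO, and Nelfa with 19 and 29 at its strongest sites.

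DSIF, made of SPT4 and SPT5, pauses the polymerase with NELF and later travels with it. Supt4a had a RUNX1 start summit of 159 fragments in WT and 181 in KO. A further RUNX1 site at -700 bp (chromosome 11, 87736759 to 87736973) held 45 (32.8 to 60.2) in WT against 85 (67.9 to 105) in KO, with intervals apart and a log2 ratio of 0.89. GATA2 lay on the same site with 45 and 36 fragments. Supt5 had its strongest RUNX1 peak beyond the gene's far end, with 132 in WT and 144 in KO, and GATA2 peaks of 22 and 35 fragments at most.

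The super elongation complex group, which joins scaffolds, ELL elongation factors and YEATS readers, carried the strongest GATA2 sites of the 34 genes. Aff1, a scaffold of the complex, bound both factors at one site inside the gene (chromosome 5, 103742052 to 103742567), where GATA2 held 268 fragments (237 to 302) in WT against 281 (249 to 316) in KO. RUNX1 held 171 (146 to 199) and 233 (204 to 265) there, the highest RUNX1 count at any of the 34 genes in KO. Ell2, an ELL factor, had its strongest sites of both factors about 26 kb into the gene (chromosome 13, 75733225 to 75734538), GATA2 with 273 (242 to 307) and 278 (246 to 313), RUNX1 with 124 (103 to 148) and 159 (135 to 186). Eaf1, an ELL partner, had 1 GATA2 peak, 1354 bp after the start (chromosome 14, 31496242 to 31496635), with 264 (233 to 298) in WT against 279 (247 to 314) in KO. RUNX1 lay on it with 146 (123 to 172) and 177 (152 to 205). Mllt3, whose protein AF9 reads acylated histones, had 258 (227 to 291) and 275 (243 to 309) GATA2 fragments about 102 kb from the nearer start (chromosome 4, 87930523 to 87931327). At these 4 genes the GATA2 counts stood near the ceiling of the lists, 286 in WT and 282 in KO, so differences between the genotypes are hard to see there.

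At the internal start of Mllt3 (chromosome 4, 87806266 to 87806597 for RUNX1), GATA2 held 218 fragments in WT and 237 in KO, and RUNX1 held 153 (130 to 179) and 137 (115 to 162). Of the shared sites away from starts, Ell gave the largest ratio of the 34 genes: a GATA2 summit 10302 bp into this elongation factor gene (chromosome 8, 70549863 to 70550086) held 26 (17.0 to 38.1) in WT against 75 (59.0 to 94.0) in KO, a log2 ratio of 1.44. RUNX1 had a peak there in KO alone, with 29 fragments. Aff1 followed, with a GATA2 site of 48 (35.4 to 63.6) in WT against 134 (112 to 159) in KO (chromosome 5, 103769775 to 103770031). The site that went furthest the other way lay at the 3′ end of Ell2 (chromosome 13, 75772025 to 75772320), where GATA2 held 98 (79.6 to 119) in WT against 52 (38.8 to 68.2) in KO, and RUNX1 35 and 22. Mllt1, the paralogue of Mllt3, had a RUNX1 start summit of 30 (20.2 to 42.8) in WT against 53 (39.7 to 69.3) in KO, and a GATA2 site of 50 and 77. Aff4, the other scaffold, had little of either factor, with at most 15 and 14 GATA2 and 40 and 54 RUNX1 fragments.

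The PAF complex loads on elongating Pol II and links it to histone modification. Ctr9 and Paf1 had the stronger RUNX1 peaks, with 117 in WT and 152 in KO at Ctr9, and 107 and 118 at Paf1. Cdc73 (chromosome 1, 143702703 to 143702936) had 31 (21.1 to 44.0) in WT against 52 (38.8 to 68.2) in KO, a log2 ratio of 0.72 with overlapping intervals. Leo1 and Rtf1 had the weakest RUNX1 peaks of the 34 genes, 19 and 23 fragments at Leo1 and 24 and 29 at Rtf1. GATA2 summits in this group held at most 48 fragments in WT and 50 in KO.

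CDK12 and CDK13 pair with cyclin K and phosphorylate the polymerase tail further into genes. Ccnk, the cyclin K gene, had a RUNX1 summit near its start of 170 (145 to 198) in WT against 204 (177 to 234) in KO. Cdk13 held 22 GATA2 peaks in WT and 16 in KO, the largest drop in number among the 34 genes, yet its strongest (chromosome 13, 17799679 to 17800125) had 198 (171 to 228) and 225 (197 to 256) fragments. Cdk12 had GATA2 summits of 105 and 101 and RUNX1 summits of 66 and 78.

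SPT6, FACT (SPT16 and SSRP1) and the SPT6 partner IWS1 handle nucleosomes in the path of the polymerase. At Supt16 the RUNX1 start summit (chromosome 14, 52197315 to 52197660) held 38 (26.9 to 52.2) in WT against 67 (51.9 to 85.1) in KO, a log2 ratio of 0.79, with intervals that just overlap. Inside that gene a RUNX1 site on the strongest GATA2 site held 15 (8.40 to 24.7) and 32 (21.9 to 45.2), while GATA2 held 77 and 107. Ssrp1 had 67 and 98 RUNX1 fragments at its start, and Supt6 had 58 and 76. Iws1 carried weak sites, up to 33 and 43 RUNX1 fragments, and its strongest WT GATA2 site held 19 (11.4 to 29.7) in WT against 11 (5.49 to 19.7) in KO. TFIIS, encoded by Tcea1, rescues backtracked polymerase, and its gene had 118 RUNX1 fragments in WT and 142 in KO at one end. Setd2, the gene of the methyltransferase for lysine 36 of histone H3, had 62 and 80 RUNX1 fragments near its start and 11 GATA2 peaks in both lists, of 76 and 84 fragments at most.

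Polr2a, the gene of the largest Pol II subunit and the carrier of the tail, had the strongest RUNX1 peak of the 34 genes in WT, with 199 (172 to 229) fragments at -236 bp from its start (chromosome 11, 69758497 to 69759321) and 224 (196 to 255) in KO. Its GATA2 peak lay elsewhere, 6805 bp after the start (chromosome 11, 69751600 to 69752029), with 213 (185 to 244) and 226 (197 to 257). Polr2b, the gene of the second largest subunit, lies on chromosome 5 beside Noa1. Its RUNX1 summit at -418 bp held 27 (17.8 to 39.3) in WT against 66 (51.0 to 84.0) in KO, and the GATA2 summit at -2465 bp held 21 (13.0 to 32.1) and 56 (42.3 to 72.7). Both pairs of intervals were apart. A RUNX1 summit at -27 bp held 29 (19.4 to 41.6) in WT against 50 (37.1 to 65.9) in KO.

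Over all summits shared one to one by the WT and KO lists, these loci had slightly more fragments in KO. The median log2 ratio of KO over WT was 0.28 for 89 RUNX1 summits, of which 76 were higher in KO, beside 0.20 for all gene peaks. For 166 GATA2 summits it was 0.18, with 106 higher, beside 0.12. At 1.5-fold, 16 RUNX1 summits were higher and 1 lower in KO, where 14.8% and 3.67% of all shared gene peaks were. For GATA2, 24 were higher and 5 lower, where 14.2% and 5.6% were, so both counts lie near the background. The lower ones were 1 site each at Ell2, Iws1, Mllt3, Aff1 and Setd2 for GATA2, and the Ell2 site again for RUNX1. The scaling matters here: division by the median of all shared peaks instead moves the median of all shared peaks to 0 from 0.19 for RUNX1 and 0.11 for GATA2, and brought the medians at these loci to 0.09 and 0.07.

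Chromosome 5, which holds Nelfa, Aff1 and Polr2b, stood apart in both factors. Gene peaks there had a median log2 ratio of 0.49 for GATA2 and 0.57 for RUNX1, against 0.10 and 0.19 on the other chromosomes, whereas shared S2P summits had 0.05 there and 0.06 elsewhere. At the 3 genes the medians were 0.56 over 27 GATA2 and 0.60 over 11 RUNX1 summits. Without them, 12 GATA2 and 10 RUNX1 summits remained 1.5-fold higher in KO, and the medians were 0.11 and 0.25. The part of the chromosome-wide shift in the values of Nelfa, Aff1 and Polr2b was not tested.

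RUNX1 summits within 1 kb of a start were all higher in KO where they could be paired. The 34 pairs had log2 ratios of 0.10 to 1.27 with a median of 0.35, and 30 of 30 off chromosome 5 were higher. Of all paired RUNX1 peaks within 1 kb of a listed start, 85.0% were higher in KO, with a median of 0.27. At the same genes, 38 of 50 RUNX1 summits farther from a start were higher, with a median of 0.24. The internal start of Mllt3 was not among the pairs, as 2 WT peaks met 1 KO peak there, and its strongest count was lower in KO. Under division by the median of shared peaks 25 of the 34 pairs were higher in KO and 9 lower, with a median of 0.16.

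**Figure D2:**
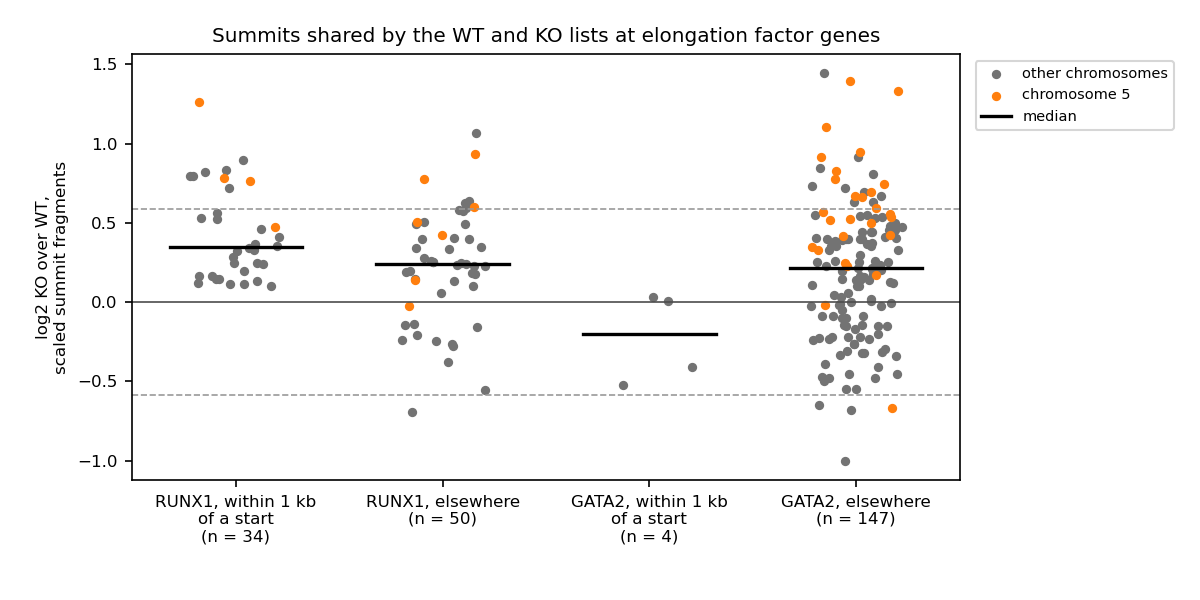
Log2 ratio of KO over WT fragments at summits shared one to one, after division by the lowest background of each list, at genes with a listed start; grey points lie on other chromosomes, orange points on chromosome 5, black bars are medians and dashed lines mark 1.5-fold. All 34 RUNX1 points near starts lie above 0, and the GATA2 points spread on both sides. Most orange points lie above 0, although the lowest GATA2 one is at -0.67.

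Most peaks at these loci had a counterpart in the list of the other genotype. Of the WT peaks, 84.2% (exact Clopper-Pearson 95% interval 78.5 to 88.9) of GATA2 and 86.8% (79.2 to 92.4) of RUNX1 peaks overlapped a KO peak, beside 83.2% and 88.2% at all genes. Of the KO peaks, 76.2% (70.2 to 81.5) and 79.7% (71.3 to 86.5) overlapped a WT peak, beside 70.0% and 69.8% at all genes. A GATA2 peak lay on 40.4% (31.3 to 49.9) of the RUNX1 peaks in WT and 37.3% (28.6 to 46.7) in KO, beside 48.4% and 47.6% at all genes. The intervals treat peaks as independent, although many came from the same few genes. Differences from all genes were not tested. GATA2 peaks with RUNX1 were the strong ones, with a median of 74 fragments in WT against 20 for those without, beside 86 and 21 at all genes.

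Elongating Pol II was found over all 34 genes, in amounts that ranged widely. The median share of a gene under S2P peaks was 61.3% in WT and 61.8% in KO, beside 0.05% and 0.16% over all genes of at least 2 kb. S2P covered 50% or more of 22 genes in WT, 20 in KO and 20 in both, where 16.7%, 17.1% and 15.8% of all genes were covered. Hexim1 (95.5% WT, 96.2% KO) and Cdk9 (95%, 93.2%) were covered almost end to end. Leo1 was lowest in both lists (4.19%, 6.55%). Mllt3 (9.52%, 10.1%), Mllt1 (9.65%, 9.05%) and Larp7 (13.5%, 9.10%) came next, in a different order in each list. Fewer cells with an active gene and less polymerase per cell cannot be told apart in these lists.

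The strongest S2P summits showed no common shift. Nelfa had the highest count of the 34 genes in both lists, with 197 (170 to 227) fragments in WT against 210 (183 to 240) in KO in a broad peak at its 3′ end. In WT that peak (chromosome 5, 33889502 to 33903658) runs well past the 3′ end of Nelfa at 33897916. The gene Nsd2 overlaps Nelfa by 51 bp. Ell2 had 191 (165 to 220) and 155 (132 to 181) about 2 kb into the gene, and Cdc73 had 135 (113 to 160) and 172 (147 to 200) in its body. Polr2a had 150 (127 to 176) and 131 (110 to 155) within 50 bp of its start, and Iws1 had 121 (100 to 145) and 131 (110 to 155). Cdk12 had 151 (128 to 177) in WT at -470 bp from a start and 147 (124 to 173) in KO far inside the gene. Mllt3 had 137 (115 to 162) in WT against 72 (56.3 to 90.7) in KO at 2 different sites. Hexim1 lay under S2P peaks whose summits fell outside the gene. Of 387 S2P summits shared one to one at these genes, 15 were 1.5-fold higher in KO and 3 lower, beside 2.94% and 1.04% of all shared gene summits, and their median log2 ratio was 0.05.

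By role, 2 of the 3 P-TEFb genes (Cdk9 and Ccnt1) and the 4 histone chaperone genes lay above the median share in both lists. Ccnt1 had 83.9% in WT and 82.8% in KO, whereas Ccnt2 lay below the median with 57.5% and 49.2%. The chaperones ranged from 71.7% to 89.7% in WT and from 68.9% to 83.9% in KO, at Iws1 the lowest and Ssrp1 the highest in both. Both DSIF genes were lower in KO, Supt4a with 63.7% in WT and 54.4% in KO, Supt5 with 77.1% and 70.6%. The cyclin K kinases showed 54.1% and 59.5% at Cdk12, 61.2% and 70.3% at Cdk13, with Ccnk at 81.8% and 78.1%. Tcea1 had 55.7% and 64.1%, and Setd2 59.9% and 66.9%. The Pol II subunits differed from each other, with 85.2% and 80.9% at Polr2a and 34.5% and 38.9% at Polr2b.

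Within the super elongation complex group and the PAF complex the coverage split. Ell2 (71.6%, 71.9%) and Eaf1 (80.4%, 85.6%) were covered, and Aff1 (25.4%, 30.9%), Aff4 (42.1%, 43.0%) and Ell (22.8%, 25.8%) were under 50% in both lists. Cdc73 (86.8%, 92.4%) and Paf1 (69.4%, 75%) were covered, while Ctr9 (16.7%, 13.2%) and Rtf1 (34.7%, 36.1%) were not. B3galt2 lies within Cdc73, where it takes up 9241 bp, and 6 further genes overlap a neighbour by 12 to 921 bp. With only bases outside other genes counted, the medians, the number of genes covered in both lists and the calls at 10 points stayed as they were.

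Of the 34 genes, 19 had a higher share in KO and 15 a lower one, and only NELF genes differed by 10 percentage points or more. Nelfcd had 63.2% in WT and 48.1% in KO, a difference of -15.1 points. Nelfe had 61.4% and 50.7% (-10.7 points), and Nelfb 23.2% and 12.6% (-10.5 points). Nelfa, the fourth subunit, went the other way, with 26.8% and 31.4% (4.57 points). Differences of this size downward were seen at 2.02% of all genes of at least 2 kb and 4.11% of S2P-covered genes, and upward at 2.98% and 4.99%. Neither background is a set of like genes. S2P-covered genes had to reach 50% in both lists, which Nelfcd and Nelfb did not. Of the 19304 genes of at least 2 kb, 9318 had no S2P in either list and so could not differ. The comparison therefore cannot show whether such drops were more common than at like genes. At Nelfb 7 WT peaks of 23 to 36 fragments had no KO peak on them, at Nelfcd 3 of 25 to 38, and at Nelfe 1 of 38, while the KO list had summits up to 52, 57 and 55 fragments at these genes and the WT list up to 65, 41 and 41. At Nelfcd and Nelfe some peaks present in both lists were also narrower in KO. These counts take only peaks with a summit inside the gene, while the shares also count peaks that reach in from outside. At Nelfe the peaks with summits inside covered nearly the same length in both lists. Its lower share in KO thus lay in peaks with summits outside the gene. With only peaks at −log10 q of 5 or more, Nelfcd kept its difference (-14.9 points), whereas Nelfb (-1.57) and Nelfe (-0.05) did not. Under that limit Supt5 also passed 10 points downward, and Tcea1 and Paf1 upward.

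**Figure D3:**
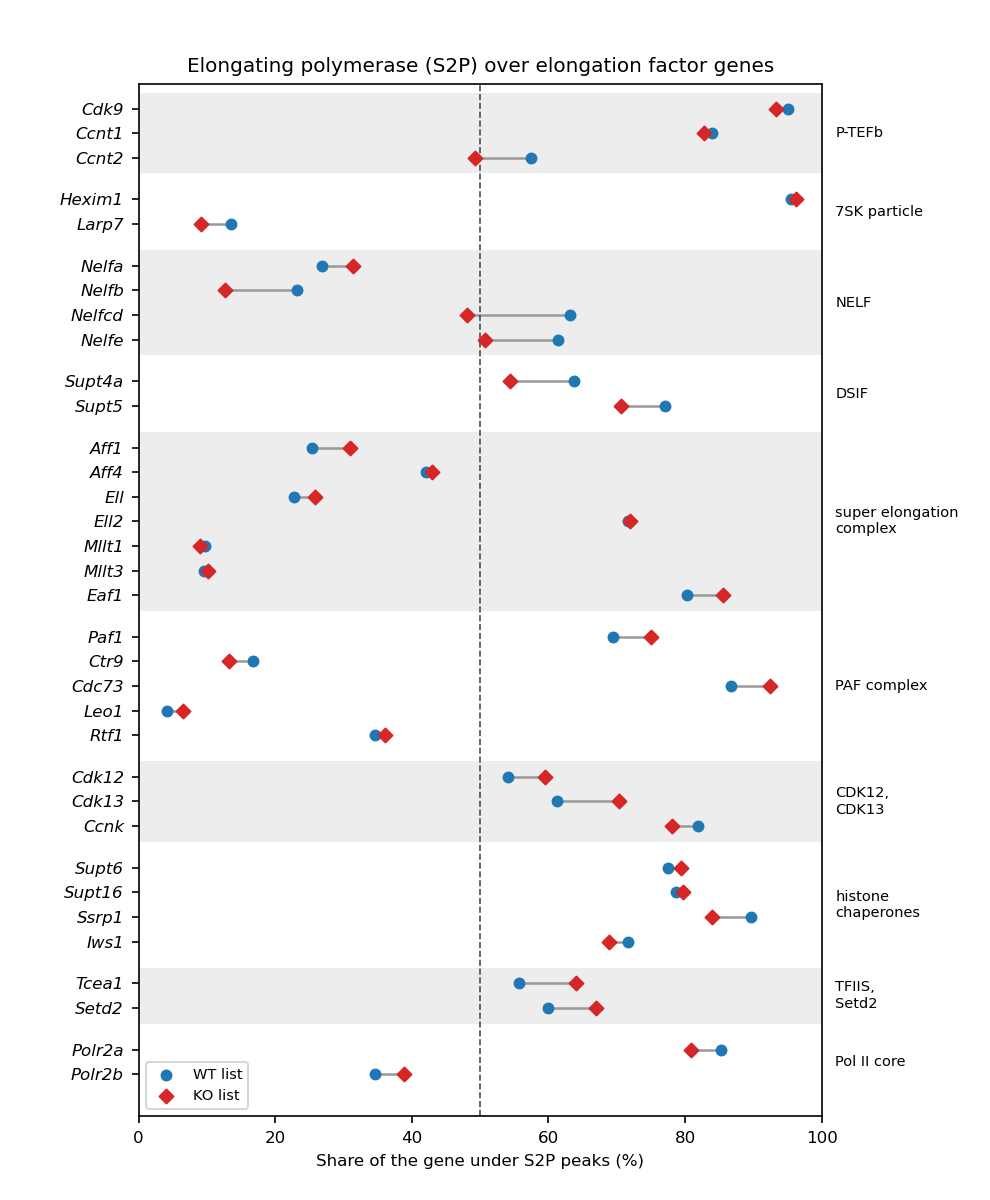
Share of each gene under S2P peaks in percent, in the WT (blue circles) and KO (red diamonds) lists, joined by a grey line and grouped by role; the dashed line marks 50%. Most pairs lie close together, and the longest lines with the KO point to the left belong to Nelfcd, Nelfe and Nelfb, while Cdk13 has the longest line to the right.

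Along the gene, S2P was thin at the start and dense at the end, as in other transcribed genes. Start and end here are the outer bounds of the gene, and listed starts can lie further in. At Aff1 both listed starts lie beyond the first 20%, which was at 0 in both lists. At the 29 genes with a strand, the median share was 48.4% in WT and 33.2% in KO in the first 20% of the gene, 63.9% and 71.4% in the middle 20%, 79.6% and 81.2% in the last 20%, and 85.6% and 86.5% in the 5 kb after the end. In the 5 kb before the start it was 0 in WT and 3% in KO, and 3 genes were higher in KO by 10 points or more, namely Ccnt2 (31.0% in WT, 72.4% in KO), Eaf1 (9.84%, 29.8%) and Cdk12 (16.5%, 26.5%), beside 7.06% of S2P-covered genes. Ccnk was lower (65.5%, 29.2%), beside 3.87%. In the 5 kb after the end, 4 genes were lower in KO by 10 points or more, beside 2.47% of S2P-covered genes. They were Setd2 (91.9% in WT, 77.7% in KO), Ell (94.5%, 81.7%), Leo1 (26.8%, 14.5%) and Paf1 (92.8%, 81.4%). Hexim1 was higher there by as much (60.1%, 81.2%), beside 6.34%. By any amount, 9 genes were lower and 14 higher after the end. The last 20% was fuller than the first at 26 genes in WT and 27 in KO, beside 80.4% and 83.2% of 2508 S2P-covered genes. Cdk12 and Hexim1 were exceptions in both lists. S2P over Mllt1 and Mllt3 lay almost wholly in the last 20%, with 48.3% and 45.3% at Mllt1 and 45.9% and 48.9% at Mllt3. The internal start of Mllt3 lies inside that stretch. S2P that follows this start and S2P at the end of the whole gene therefore cannot be told apart there.

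The first 20% of the gene was less covered in KO at 22 of the 29 genes and more covered at 3, Cdc73, Cdk12 and Eaf1. Of the S2P-covered genes, 53.8% were lower and 31.1% higher there. The drop was 10 points or more at 8 genes, where 22.8% of S2P-covered genes had one, and no gene was higher by as much, where 10% were. Ssrp1 differed most, with 67.3% in WT and 30.5% in KO, followed by Ccnt2 (61.4%, 38.2%), Cdk9 (86.4%, 67.2%) and Polr2b (19.7%, 3.05%). Supt5, Ccnk, Setd2 and Polr2a were the others, with differences of -16.6, -14.6, -13.1 and -11.0 points. With peaks at −log10 q of 5 or more, 19 of 29 genes were lower, and the medians came to 31.3% in WT and 30.4% in KO, so the gap between the medians was small at that limit.

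The last 20% leaned the other way, higher in KO at 20 genes and lower at 5 (Supt4a, Ell2, Mllt1, Ccnk and Rtf1), where 42.4% and 17.6% of S2P-covered genes were. The difference reached 10 points upward at 7 genes, beside 9.53%, and the list includes Nelfb (27.1% in WT, 50.8% in KO), Cdk13 (71.2%, 83.6%) and Setd2 (58.5%, 70.0%). Downward it did so only at Supt4a (93.1%, 79.3%), beside 2.67% of S2P-covered genes. Nelfb thus had less S2P over its body and more at its end in the KO list. The S2P-covered genes, chosen for coverage in both lists, left little room for a rise here. Their median share of the last 20% was already 97.0% in WT, and 1004 of the 2508 were equal in both lists. The elongation factor genes were not chosen by coverage and had a median of 79.6% in WT. The comparison with 42.4% and 9.53% therefore cannot show whether rises were more common than at like genes. For 24 of the 34 genes another protein-coding gene lies within 5 kb, and among the 7 genes with a strand and none so near, 5 were lower in the first 20% and 5 higher in the last.

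**Figure D4:**
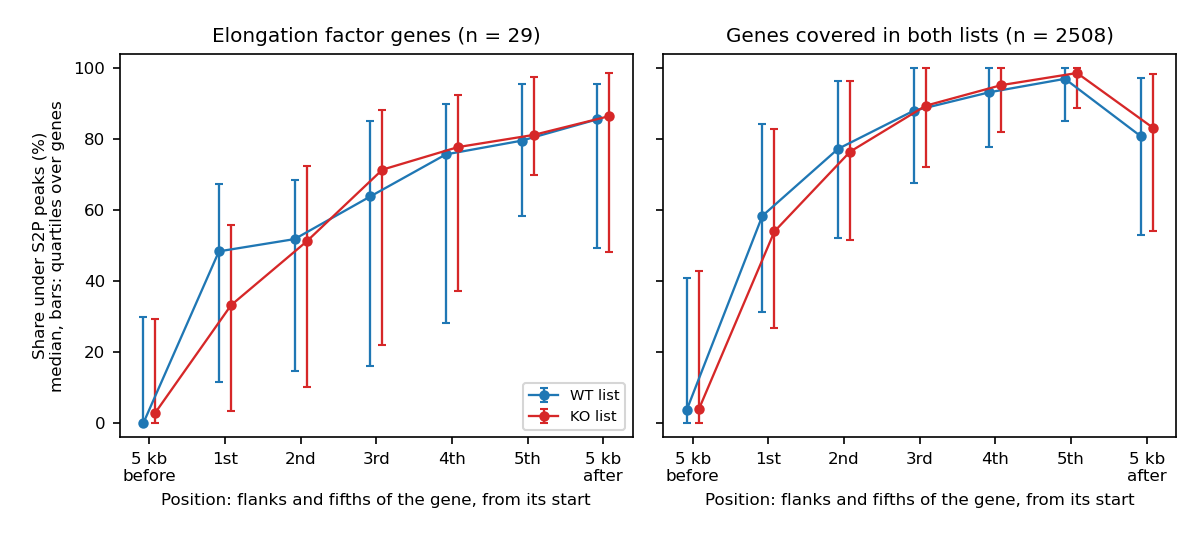
Median share under S2P peaks in percent (points) with quartiles over genes (bars), in the 5 kb before the start, successive stretches of 20% of the gene and the 5 kb after its end, for the 29 elongation factor genes with a listed strand (left) and 2508 genes covered for 50% or more in both lists (right), WT in blue and KO in red. Start and end are the outer bounds of the gene. Both sets climb from start to end, and in the left panel the first 20% goes from 48.4% in WT to 33.2% in KO while the later points lie closer together.

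The rest of the transcription machinery was read in the same way. Of 80 other genes, from further elongation factors, Pol II subunits, initiation, cleavage and termination and Integrator, 63 had GATA2 in WT and 71 in KO, and 74 and 76 had RUNX1. Among all protein-coding genes, 56.6% and 61% had GATA2, and 50.1% and 52.7% had RUNX1. Among S2P-covered genes the shares were 83% and 88% for GATA2, and 93% and 96.5% for RUNX1. S2P covered 35 of the 79 that are at least 2 kb long in both lists, with a median share of 45.4% in WT and 48.0% in KO. In these genes 9 shares were 10 points or more higher in KO and 5 lower. The background was 2.98% and 2.02% of all genes of that length, and 4.99% and 4.11% of S2P-covered genes, with the limits given above for the NELF genes.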

How the data were processed

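The submitters' processing notes name Bowtie2 2.2.1, MACS2 2.1.0 and the build GRCm38 (mm10), without roles or settings. The 6 lists deposited by the authors are in narrowPeak layout with no header. The deposited score equals 10 times −log10 q at 99.9% or more of the peaks of each list. The deposited fold enrichment sets the summit pileup against local background as a ratio. Deposited significance is on the −log10 scale, once for p and once for q, with a q of at most about 0.05. The deposited summit is an offset in bp. Which input went with which list, and how the 2 S2P replicates were combined in each list, is not given in the sources used here.

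Summit fragments and local background were recovered from fold enrichment and −log10 p under a Poisson model. In each list 100% of summits gave whole numbers with −log10 p within 0.005, against 3.27% to 5.67% at a deliberately wrong scale. Ratios of KO over WT use fragments divided by the lowest background of each list, at peaks overlapping one to one by at least 1 bp, and 1.5-fold counts as called. S2P shares are the percent of a gene under peaks, called at 10 points. Genes, starts and promoters came from RefSeq tables of GRCm38.p6. Scripts (Python 3.11.15, SciPy 1.17.1) were tested on simulated data. Depth per library is not given in the lists, and summit counts of 23 to 38 at the median limit the precision. All 34 genes are named. Full values are given for the 5 strongest summits of a list, genes bound in 1 genotype, strongest or start sites past 1.5-fold, S2P differences of 10 points and the extremes of S2P share, with a few further sites added after their values were seen. The genes and lists were chosen with earlier results of these data known. The alternatives tried covered flanks, thresholds, scaling, overlap and the genes on chromosome 5. No genome sequence was used here, so peaks away from promoters were not searched for motifs.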

Additional observations from a re-analysis of the deposited data

How the results depend on the processing

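No paired analysis was possible because each S2P list stands for both replicates and each factor had 1 library per genotype. Of 165 recomputed values for 42 results, 139 stayed close to the reported value, 24 moved, 2 passed 10 points no longer (Nelfb and Nelfe at −log10 q of 5) and 0 changed direction. Close was a wide allowance: a count within 1.5-fold, a median log2 ratio within a fixed margin, or a percent inside an exact binomial interval. For the NELF shares it meant the same side of 10 points. Thus 36 GATA2 summits 1.5-fold higher in KO without division counted as close to 24. With no flank, RUNX1 had 22 genes and 68 peaks in WT and 69 peaks in KO. Division by the median of shared peaks gave median log2 ratios of 0.0704 (GATA2), 0.0865 (RUNX1) and 0.16 (RUNX1 at starts), and 10 RUNX1 summits 1.5-fold higher. Without chromosome 5, 12 GATA2 and 10 RUNX1 summits were. At 75% coverage 10 genes were covered in both lists. At 5 points 7 genes were lower and 8 higher in KO, and at −log10 q of 5 there were 2 higher by 10 points. A flank of 2 kb after the end gave medians of 100% in both lists. Among the 7 genes with no near neighbour, 5 were lower over the first 20% and 5 higher over the last 20%. Within 0.5 kb of a start, GATA2 lay at 2 genes in WT and 1 in KO, and at −log10 q of 5 at 2 in KO. A reciprocal overlap of 50% gave 78.5% of GATA2 and 74.6% of RUNX1 WT peaks shared, and 28.1% (WT) and 27.1% (KO) of RUNX1 peaks with GATA2.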

Other observations

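Among the 80 other transcription genes, 8 had GATA2 in KO alone, of which 4 encode small Pol II subunits (Polr2e, Polr2g, Polr2i and Polr2j). The others were Cpsf1, Cpsf4 and Cstf2, of the cleavage machinery, and Ints14 of Integrator. Each of the 8 had 1 such peak. Polr2j and Cpsf4 lie on chromosome 5, where shared GATA2 peaks at genes had a median log2 ratio of 0.49, against 0.10 elsewhere. GATA2 in KO alone was found at 7.35% of all genes and 6.5% of S2P-covered genes. The KO list of GATA2 was also the longer one, with 80611 peaks against 68199 in WT. RUNX1 was present in KO alone at Ercc3, a TFIIH helicase gene, and Polr2m, each with 2 peaks, a state found at 3.99% of all genes and 3.81% of S2P-covered genes. No gene of these lists was bound in WT alone, where 2.9% of all genes were for GATA2 and 1.34% for RUNX1.

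S2P shares were 10 points or more higher in KO at Cpsf3 (45.9% WT, 61.3% KO), Taf1 (48.3%, 62.5%), Ints6 (42.2%, 56.1%), Polr2e (16.6%, 29.4%), Ell3, a further ELL factor (55.6%, 68.3%), Ints1 (35.7%, 48.0%), Ints5 (68.3%, 80.0%), Ccnh (57.3%, 68.8%) and Gtf2a1 (57.8%, 68.1%). They were lower by as much at Gtf2b, the gene of TFIIB (75.4%, 60.4%), Gtf2h5 (46.9%, 32.3%), Polr2m (89.1%, 76.5%), Polr2k (11.9%, 0) and Wdr61, of the PAF complex (72.2%, 61.1%). None of these differences was tested, for want of replicate lists.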
